A study of Homo sapiens with 21 samples.

Results

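Steroid and prolactin receptors and the transcription factors that accompany them in luminal breast cells were followed across 21 RNA-seq libraries of HCC1806, an established human triple-negative breast cancer cell line. The 6 genes were ESR1, PGR, NR3C1, PRLR, GATA3 and FOXA1, out of 60668 genes in the count tables. They were chosen by gene name and known role with earlier results of these data in view, and no cut on a measured value enters the choice. Their differences from the controls are therefore descriptions. Adjusted p values beside them say where each gene stood in a fit over all genes and are not independent evidence. No p is given for PGR and PRLR, because their pattern may have brought them onto the list.

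The study set cells overexpressing 3 splicing factors together, or MYC, beside controls. In the first count table, cells labelled 3xSR (SRSF2, SRSF3 and SRSF7 together) and MYC-OE had the control 3XCTL, whose genotype reads only control. In the second table, cells labelled SRSF2 OE, SRSF3 OE and SRSF7 OE had the control 1xCtrl, a single plasmid control. Each of the 7 groups had 3 libraries. All groups were the same cell line, grown as adherent cultures in medium with serum. The labels give no promoter, no dose of transgene and no word on whether a line is 1 clone. They do not say whether the 3 libraries of a group came from separate cultures, so p values measure only the spread between these libraries.

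Library totals ranged from 143269192 to 303323552 counts. Gene levels are in CPM, the gene's share of a library's counts in parts of a mega-count, scaled by TMM within a table. SRSF3, SRSF7 and MYC were higher than in the control in the libraries labelled for them (SRSF3 526 against 375 CPM in SRSF3 OE, SRSF7 435 against 363 CPM in SRSF7 OE, MYC 174 against 93.4 CPM in MYC-OE). MYC also stood at 157 CPM in those labelled 3xSR, and SRSF7 at 428 CPM in those labelled SRSF2 OE. SRSF2 was not higher in the libraries labelled for it. It stood at 398 ± 19.6 CPM (SD, n = 3) in the libraries labelled SRSF2 OE against 444 ± 31.5 in 1xCtrl, and at 386 ± 12 in those labelled 3xSR against 403 ± 18.3 in 3XCTL. The directions below belong to libraries so labelled. Epithelial and basal markers were high in every library (EPCAM 517 to 705 CPM, KRT5 1600 to 2650, TP63 130 to 234), ERBB2 transcripts ranged from 99.6 to 184 CPM, and of 4 leukocyte markers CD14 (0.7 to 2.63 CPM) and PTPRC (at most 0.539 CPM) were the highest and CD3E the lowest (at most 0.0254 CPM). Of 3 endothelial markers VWF reached 1.04 CPM and PECAM1 0.149. The control library 1xCtrl replicate 2 stood farthest from another library of its group, and values without it are given where they matter.

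Nuclear receptors of the NR3 family bind steroid hormones and act on genes as transcription factors. ESR1 encodes oestrogen receptor alpha, PGR the progesterone receptor and NR3C1 the glucocorticoid receptor. The prolactin receptor, encoded by PRLR, is a cytokine receptor at the cell surface that signals through JAK2 and STAT5 and is needed for milk production. GATA3 and FOXA1 open and hold the regulatory regions that luminal mammary cells use, and FOXA1 lets the oestrogen receptor reach its sites. Triple-negative tumours are defined by lack of oestrogen and progesterone receptor protein and of ERBB2 amplification, and protein was not measured here.

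The genes lie on GRCh38 in GENCODE release 29 as follows. ESR1 (ENSG00000091831.23) is on the plus strand of chromosome 6 from 151656691 to 152129619. PGR (ENSG00000082175.15) is on the minus strand of chromosome 11 from 101029624 to 101130524. NR3C1 (ENSG00000113580.15) is on the minus strand of chromosome 5 from 143277931 to 143435512. PRLR (ENSG00000113494.17) is on the same strand of chromosome 5 from 35048756 to 35230589. GATA3 (ENSG00000107485.18) is on the plus strand of chromosome 10 from 8045378 to 8075203. FOXA1 (ENSG00000129514.6) is on the minus strand of chromosome 14 from 37589984 to 37596059. The counting step and its strand setting are not given in the sources used here. Exons of PGR overlap those of the antisense gene PGR-AS1 over 812 bases, those of FOXA1 overlap TTC6 on the other strand over 16 bases, and those of ESR1 overlap AL078582.1 on its own strand over 135 bases. Reads there cannot be assigned with certainty.

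PGR and PRLR carried the largest contrasts, so the DNA around their starts is shown. The windows run from 250 bases before to 50 after a transcript start in RefSeq on GRCh38.p14, written 5′ to 3′ on the gene's strand, and capitals mark matches to the motifs searched. PGR window 1 is chr11:101129028-101129327, PGR window 2 is chr11:101129764-101130063, PRLR window 1 is chr5:35118073-35118372 and PRLR window 2 is chr5:35230438-35230737, all on the minus strand.
PGR window 1: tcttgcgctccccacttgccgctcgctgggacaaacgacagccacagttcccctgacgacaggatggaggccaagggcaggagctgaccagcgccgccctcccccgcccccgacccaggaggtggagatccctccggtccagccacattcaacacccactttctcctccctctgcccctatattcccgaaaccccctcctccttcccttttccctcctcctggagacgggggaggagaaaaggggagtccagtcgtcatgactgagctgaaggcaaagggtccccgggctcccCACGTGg
PGR window 2: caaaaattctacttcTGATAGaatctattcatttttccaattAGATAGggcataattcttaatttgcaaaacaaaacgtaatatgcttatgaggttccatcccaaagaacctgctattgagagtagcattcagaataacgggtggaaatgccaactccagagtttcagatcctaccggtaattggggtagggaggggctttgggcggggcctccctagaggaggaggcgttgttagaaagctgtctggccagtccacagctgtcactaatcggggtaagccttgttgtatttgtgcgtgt
PRLR window 1: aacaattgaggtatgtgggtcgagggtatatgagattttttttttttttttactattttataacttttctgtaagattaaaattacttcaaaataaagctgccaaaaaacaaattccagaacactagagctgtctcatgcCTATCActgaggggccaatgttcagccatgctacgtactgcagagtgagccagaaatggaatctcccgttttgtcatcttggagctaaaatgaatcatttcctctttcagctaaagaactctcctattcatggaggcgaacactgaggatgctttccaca
PRLR window 2: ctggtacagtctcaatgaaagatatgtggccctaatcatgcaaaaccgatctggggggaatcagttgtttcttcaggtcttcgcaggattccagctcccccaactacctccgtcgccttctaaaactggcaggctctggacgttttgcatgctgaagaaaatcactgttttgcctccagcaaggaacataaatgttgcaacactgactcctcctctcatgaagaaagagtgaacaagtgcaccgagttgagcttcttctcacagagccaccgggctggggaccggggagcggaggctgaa

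The search covered both strands for the E-box CACGTG, a word that MYC with its partner MAX can bind, for the GATA words (AGATAA or AGATAG, as well as TGATAA or TGATAG), for the FOX words TGTTTAC and also TGTTTGC, and for the STAT word TTCNNNGAA. PGR window 1 held CACGTG starting 44 bases into the transcript, counting the start as 1, and 7.26% of 35116 RefSeq windows of this length hold that word. PGR window 2 held 2 GATA words and PRLR window 1 held 1 (CTATCA, which reads TGATAG on the other strand), and 25.0% of all windows hold a GATA word. PRLR window 2 held none of these motifs. FOX words occurred in 7.17% of all windows and STAT words in 7.66%. Among windows not shown, FOX words lay in GATA3 window 1, FOXA1 window 1 and NR3C1 window 7. STAT words lay in ESR1 windows 5 and 6 and NR3C1 window 5. GATA words lay in ESR1 window 4 and NR3C1 window 7, and CACGTG in GATA3 window 3. PGR window 3, also not shown, overlaps window 1 and held the same CACGTG. The full palindromic elements of the steroid receptors and of the oestrogen receptor, found in 0.00285% and 0.057% of all windows, were in none of the windows of the 6 genes. These matches describe letters in the windows, and which transcript start the cells used was not measured.

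PGR, the progesterone receptor, was counted in the control libraries and was at or near 0 in all others. In 3XCTL the 3 libraries had 76, 19 and 28 counts (0.315, 0.103 and 0.156 CPM). All 3 libraries labelled 3xSR and all 3 labelled MYC-OE had 0 counts. The groups did not overlap, and against a floor of 3 counts in each library PGR was at least 10.9-fold lower in the libraries labelled 3xSR and at least 14.2-fold lower in MYC-OE. Of the 123 counts in 3XCTL, replicate 1 held 76. Without that library the bounds were 7.37-fold for those labelled 3xSR and 9.64-fold for MYC-OE.

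In 1xCtrl PGR had 264, 262 and 230 counts (1.46, 1.14 and 1.21 CPM). The libraries labelled SRSF2 OE had 0, 0 and 0 counts, at least 88.2-fold lower. SRSF3 OE had 6, 0 and 1 counts, a ratio to 1xCtrl of 0.00918 with a 95% counting interval from 0.00368 to 0.019. Without its replicate 1 the ratio was 0.00194 (interval 4.91e-05 to 0.0108). SRSF7 OE had 2 counts in replicate 2 and 0 in the others, a ratio of 0.002 with an interval from 0.000242 to 0.00725, and without replicate 2 its 0 counts put it at least 116-fold lower. Both controls thus held PGR counts in every library, and every line of the second table sat far below its control. The antisense gene PGR-AS1 had 0 counts in all libraries but a library labelled 3xSR with 1. The strand setting of the counting is not known, and the part of overlapping reads in the PGR counts was not tested. Even in 1xCtrl PGR was a low transcript, at 0.0823 ± 0.0109 CPM per kilobase of exon (SD, n = 3) against 0.62 ± 0.0312 for ESR1. The summed level of 5 fibroblast markers was also highest in the controls. It ran from 47.2 to 49.4 CPM in 3XCTL and from 28.1 to 32.7 in 1xCtrl, against 22.8 to 25.5 in those labelled 3xSR, 19 in MYC-OE, 15.9 to 16.2 in those labelled SRSF2 OE, 14.9 to 16.2 in SRSF3 OE and 20.4 to 23.8 in SRSF7 OE. Of the 5, LUM and COL1A1 were above 1 CPM, while DCN and COL1A2 reached at most 0.507 and 0.315 CPM. The part of these markers in the PGR values was not tested.

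PRLR, the prolactin receptor, took the opposite course. It had 0 counts in all 3 libraries of 3XCTL and in all 3 of 1xCtrl. The libraries labelled 3xSR had 437, 516 and 362 counts (2.4, 2.62 and 2.53 CPM), at least 167-fold above the control's floor. MYC-OE had 33, 27 and 41 counts (0.134, 0.134 and 0.18 CPM), at least 9.9-fold above it. Both lines held PRLR in each library, and no library of MYC-OE came near those labelled 3xSR.

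In the second table SRSF3 OE had 278, 231 and 310 PRLR counts (1.41, 1.25 and 1.38 CPM), at least 89.1-fold above the floor of 1xCtrl. The libraries labelled SRSF2 OE had 9, 40 and 11 counts (0.0394, 0.163 and 0.065 CPM), at least 5.9-fold above it, or 3.46-fold without replicate 2. SRSF7 OE had 11, 4 and 30 counts (0.0458, 0.0167 and 0.0947 CPM), at least 3.47-fold above it, or 2.07-fold without replicate 3. SRSF3 OE and the libraries labelled 3xSR were the groups with PRLR above 1 CPM, and the other 3 lines held between 4 and 41 counts in a library. Floors and intervals cover counting error only. If the deposited counts were scaled from coverage, a count is not a read and these bounds hold in the tables' own unit.

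Between lines the PRLR values are set side by side as a description with no test, since PRLR entered the fit through the lines where it is high. The fitted log2 difference was -4.07 (SE 0.197) for MYC-OE against the libraries labelled 3xSR. It was 3.89 (SE 0.581) for SRSF3 OE against those labelled SRSF2 OE and -4.62 (SE 0.605) for SRSF7 OE against SRSF3 OE. For SRSF7 OE against those labelled SRSF2 OE it was -0.74, with a 95% interval from -1.93 to 0.45. PGR had 9 counts in all 9 libraries of the single lines together, too few to compare these lines.

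**Figure D1:**
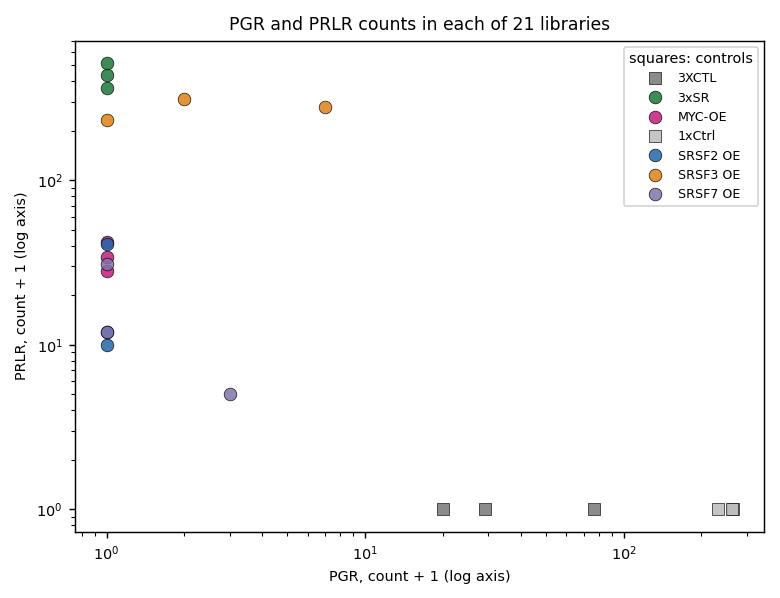
Counts of PGR (x axis) and PRLR (y axis) in each of the 21 libraries, with 1 added and both axes logarithmic; squares are controls and circles are overexpressing lines. The 6 control libraries have PRLR at 0 counts and PGR between 19 and 264, and the 15 others have PRLR between 4 and 516 counts and PGR at most at 6.

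Of 40945 genes with a count in any library, PRLR was the only gene with 0 counts in all 6 control libraries and at least 1 in all 15 others. PGR was the only gene with at least 10 counts in every control library and under 10 in every other. Both patterns were written down after these values were seen, to fit these genes. When 12 of the 15 libraries sufficed, 7 genes met the first pattern and 6 the second.

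The other 4 genes were tested in edgeR's quasi-likelihood fit, on the log2 scale and with Benjamini-Hochberg adjustment over all genes. ESR1, the gene of oestrogen receptor alpha, was counted in every library, from 1155 to 3118 counts. In 3XCTL it stood at 8.29, 8.01 and 7.79 CPM, in the libraries labelled 3xSR at 7.68, 7.75 and 8.07, and in MYC-OE at 10.1, 9.77 and 9.57. MYC-OE lay above both other groups without overlap, and the libraries labelled 3xSR overlapped the control. In MYC-OE the log2 difference from 3XCTL was 0.29 (SE 0.0697, adjusted p = 0.00691 in edgeR). In those labelled 3xSR it was -0.04 with a 95% interval from -0.17 to 0.1 (adjusted p = 0.749). MYC-OE exceeded the libraries labelled 3xSR by 0.32 (SE 0.0698, adjusted p = 0.00381).

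In the second table ESR1 parted the single lines. The control 1xCtrl had 8.31, 8.39 and 9.09 CPM. The libraries labelled SRSF2 OE had 11.1, 10.9 and 11.2 CPM, SRSF7 OE had 10.6, 11.5 and 9.84, and SRSF3 OE had 6.85, 6.96 and 6.49. No line overlapped the control, with SRSF3 OE below it and the other lines above. The log2 difference of ESR1 from 1xCtrl was 0.36 in those labelled SRSF2 OE (SE 0.0802, adjusted p = 0.00526 in edgeR) and -0.35 in SRSF3 OE (SE 0.0804, adjusted p = 0.00562). The difference of 0.31 in SRSF7 OE (SE 0.0802, adjusted p = 0.018) was less firm. It missed the threshold with upper-quartile scaling (adjusted p = 0.0513), with these groups fitted alone (0.0743), without 1xCtrl replicate 1 (0.0649) and without SRSF7 OE replicate 2 (0.0686). SRSF3 OE lay below those labelled SRSF2 OE by -0.71 (SE 0.0806, adjusted p = 4.06e-05), and SRSF7 OE lay above SRSF3 OE by 0.65 (SE 0.0805, adjusted p = 3.9e-05). SRSF7 OE and those labelled SRSF2 OE were not told apart (-0.05, interval -0.21 to 0.1, adjusted p = 0.688).

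NR3C1, the gene of the glucocorticoid receptor, had the highest level per kilobase of exon of the 6 genes in every group, between 8.69 and 11 CPM per kilobase as group means. In 3XCTL it stood at 97.1, 106 and 97.8 CPM, in the libraries labelled 3xSR at 102, 90.2 and 94, and in MYC-OE at 88, 87.8 and 81.6. MYC-OE lay below the control without overlap, by -0.22 on the log2 scale (SE 0.0602, adjusted p = 0.0124 in edgeR). Without MYC-OE replicate 3 the value was -0.19 and missed the threshold (adjusted p = 0.0602). In those labelled 3xSR it was -0.07 (interval -0.19 to 0.05, adjusted p = 0.424), and after removal of each library's trend with GC content it was -0.20 and passed (adjusted p = 0.000706).

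In 1xCtrl NR3C1 had 87.6, 73.1 and 88.4 CPM, so replicate 2 lay below the others. SRSF3 OE had 111, 92.7 and 99.7 CPM and was the highest group of its table, by 0.28 over 1xCtrl on the log2 scale (SE 0.0811, adjusted p = 0.0185 in edgeR). That call was lost with upper-quartile scaling (0.22, adjusted p = 0.0891), with scaling by total counts (0.17, adjusted p = 0.0957), with these groups fitted alone (0.25, adjusted p = 0.1) and without SRSF3 OE replicate 1 (0.17, adjusted p = 0.0923) or replicate 3 (0.24, adjusted p = 0.0548). The libraries labelled SRSF2 OE (81.6, 78.9 and 78.7 CPM) and SRSF7 OE (78.3, 84.2 and 78.3 CPM) lay within the control's range, with log2 fold changes of -0.06 (interval -0.22 to 0.1) and -0.05 (interval -0.21 to 0.11). That range rests on 1xCtrl replicate 2, as replicates 1 and 3 lay above all these libraries. With 1 library left out the changes ranged from -0.15 to -0.05 and from -0.12 to -0.03, and none passed the threshold. SRSF3 OE lay above those labelled SRSF2 OE by 0.34 (SE 0.0811, adjusted p = 0.00723).

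GATA3, a zinc finger factor of luminal identity, fell in the libraries labelled 3xSR. They had 19.8, 19.4 and 18 CPM against 27.6, 24.7 and 24.9 in 3XCTL, without overlap. On the log2 scale they were lower by -0.43 (SE 0.0622, adjusted p = 0.000291 in edgeR). MYC-OE, at 28.1, 27.5 and 27.2 CPM, overlapped the control (0.1, interval -0.02 to 0.22, adjusted p = 0.23) and lay above the libraries labelled 3xSR by 0.53 (SE 0.0622, adjusted p = 6.67e-05).

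None of the single lines had less GATA3 than 1xCtrl past the threshold. The control had 19.2, 22.9 and 18.8 CPM, the libraries labelled SRSF2 OE 21.6, 21.2 and 20.9, SRSF3 OE 20.6, 20.6 and 18.8, and SRSF7 OE 25.3, 23.9 and 27.2. SRSF7 OE lay above the control without overlap, by 0.32 (SE 0.0816, edgeR adjusted p = 0.0156). This call was lost when its groups were fitted alone (adjusted p = 0.0964), without 1xCtrl replicate 1 (0.173) or 3 (0.116), and without SRSF7 OE replicate 1 (0.108), 2 (0.0526) or 3 (0.145). Without 1xCtrl replicate 2, which had the most GATA3 of its group, it was 0.43 (adjusted p = 0.000587). The changes were 0.06 in those labelled SRSF2 OE (interval -0.1 to 0.22) and -0.02 in SRSF3 OE (interval -0.18 to 0.14). SRSF7 OE also exceeded SRSF3 OE, by 0.35 (SE 0.0816, adjusted p = 0.00494).

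FOXA1, a forkhead factor that opens chromatin, differed most among the single lines of the 4 genes with counts in every group. The control 1xCtrl had 16.1, 14.5 and 17.3 CPM. The libraries labelled SRSF2 OE had 12.9, 12.5 and 12.7, SRSF3 OE 10.9, 10.2 and 9.72, and SRSF7 OE 21.4, 20.7 and 21.1. All 4 groups were apart from each other, in the order SRSF7 OE, 1xCtrl, those labelled SRSF2 OE and SRSF3 OE. FOXA1 fell by 0.63 on the log2 scale in SRSF3 OE (SE 0.0755, adjusted p = 4.81e-05 in edgeR) and by 0.33 in those labelled SRSF2 OE (SE 0.0752, adjusted p = 0.00667), and rose by 0.4 in SRSF7 OE (SE 0.0751, adjusted p = 0.00322). Between SRSF7 OE and SRSF3 OE the difference was 1.03 (SE 0.0758, adjusted p = 5.41e-07), 2.05-fold.

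In the first table FOXA1 had 19.4, 20.4 and 19.8 CPM in 3XCTL, 19.1, 17.3 and 17.9 in the libraries labelled 3xSR, and 17.6, 19 and 18.7 in MYC-OE. Both lines lay below the control in all 3 libraries, yet neither passed the threshold (-0.13, interval -0.26 to -0.01, adjusted p = 0.123, and -0.11, interval -0.23 to 0.01, adjusted p = 0.192).

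**Figure D2:**
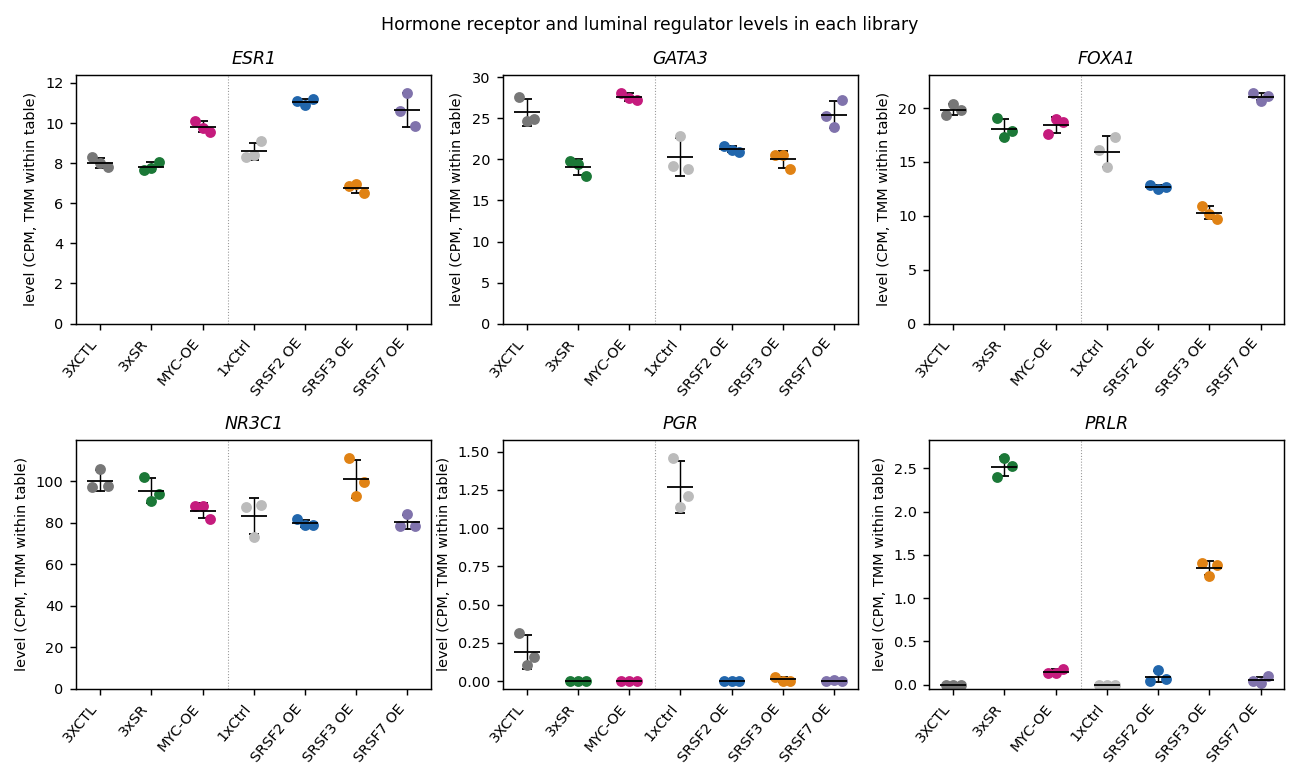
Level of each of the 6 genes in each of the 21 libraries, in CPM scaled by TMM within a count table; points are libraries, horizontal lines are group means with SD bars, and the dotted line parts the tables. FOXA1 runs from 9.72 CPM in SRSF3 OE to 21.4 in SRSF7 OE, and PGR and PRLR are at 0 or near it in most groups.

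**Figure D3:**
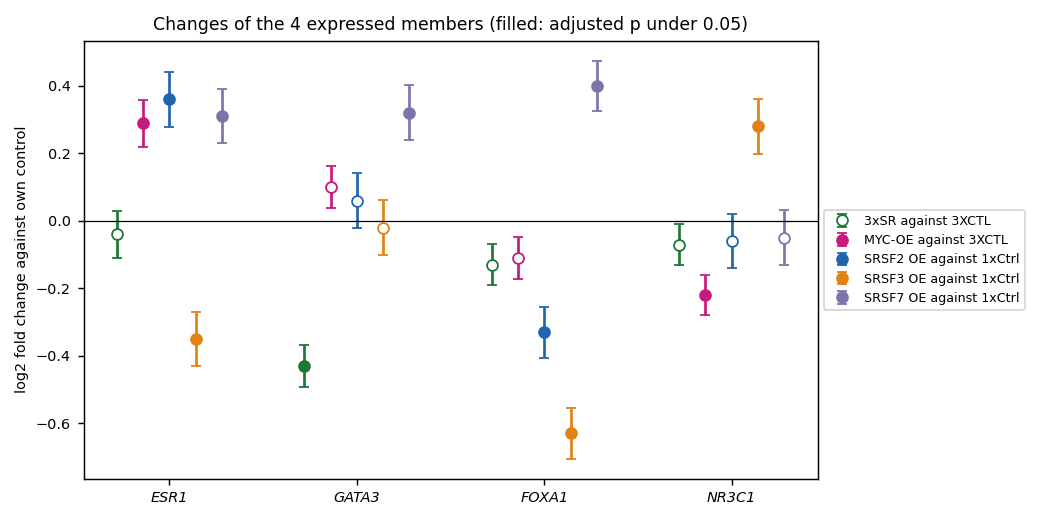
Log2 fold change against the own control (y axis) for the 4 genes with counts in every group, with bars of 1 SE; filled points have an edgeR adjusted p under 0.05. In SRSF7 OE ESR1, GATA3 and FOXA1 lie at 0.31 to 0.4, and in SRSF3 OE ESR1 and FOXA1 lie at -0.35 and -0.63.

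All 6 genes passed the filter on low counts in both tables, PGR and PRLR through the groups where they are high, so calls are counted over the other 4. Of these 4 genes, 1 passed the threshold in the libraries labelled 3xSR, where 29% of 23160 tested genes did, and 2 in MYC-OE, where 35.3% did. For the second table the numbers were 2 in those labelled SRSF2 OE (23.5% of 24362 tested genes), 3 in SRSF3 OE (29.2%) and 3 in SRSF7 OE (17.3%). Comparisons in a table share their control libraries, so they are not independent of each other. Between lines, 2 of the 4 passed for MYC-OE against those labelled 3xSR (34.9% of genes), 3 for SRSF3 OE against those labelled SRSF2 OE (26.8%), 2 for SRSF7 OE against those labelled SRSF2 OE (24.2%) and 4 for SRSF7 OE against SRSF3 OE (35.2%). With so few genes these counts are descriptions.

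The change in the libraries labelled 3xSR was set against that in each single line, each relative to its own control, in a fit of all 21 libraries. The GATA3 change was lower in those labelled 3xSR than in any single line by this measure. The difference in log2 fold change was -0.49 from those labelled SRSF2 OE (SE 0.106, edgeR adjusted p = 0.00221), -0.4 from SRSF3 OE (SE 0.106, adjusted p = 0.0129) and -0.75 from SRSF7 OE (SE 0.106, adjusted p = 3.24e-05). The controls themselves differed in GATA3, with means of 25.7 CPM in 3XCTL and 20.3 in 1xCtrl. The GATA3 levels of those labelled 3xSR (18 to 19.8 CPM) overlapped those of SRSF3 OE (18.8 to 20.6) and 1xCtrl (18.8 to 22.9). FOXA1 lay between the lines, 0.51 above SRSF3 OE (SE 0.0885, adjusted p = 0.000423) and below SRSF7 OE (-0.53, SE 0.0883, adjusted p = 0.000174). From those labelled SRSF2 OE it differed by 0.2 (SE 0.0884, adjusted p = 0.119), and by 0.26 with a call once 1xCtrl replicate 2 was left out (adjusted p = 0.03) or the GC trend removed (adjusted p = 0.0263). ESR1 was likewise between them, with -0.39 from those labelled SRSF2 OE (SE 0.091, adjusted p = 0.00372), 0.32 from SRSF3 OE (SE 0.0912, adjusted p = 0.0178) and -0.34 from SRSF7 OE (SE 0.091, adjusted p = 0.00909). NR3C1 differed from that of SRSF3 OE (-0.34, SE 0.103, adjusted p = 0.0268). The ESR1 difference from SRSF3 OE missed the threshold without replicate 3 of 3XCTL, of those labelled 3xSR, of 1xCtrl or of SRSF3 OE (adjusted p = 0.0574 to 0.0711). That of NR3C1 missed it without 3XCTL replicate 2, 3xSR replicate 2 or 3, or SRSF3 OE replicate 1 (adjusted p = 0.0501 to 0.0703). With only the groups compared in the fit, the differences from SRSF3 OE missed it for GATA3 (adjusted p = 0.061), ESR1 (0.0578) and NR3C1 (0.0995). ESR1 also missed it with no filter (0.0623), and NR3C1 with upper-quartile scaling (0.0886) and total counts (0.0618). Of all genes 21.9%, 17.8% and 24.6% passed in the comparisons with SRSF2 OE, SRSF3 OE and SRSF7 OE. Of the 4 genes 2, 4 and 3 did. The tables have their own controls, and a difference between the tables that acts unequally on control and line cannot be told apart from these differences.

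Other receptors of the NR3 family were examined beside the members, 5 of 6 listed genes being testable. ESR2, oestrogen receptor beta, was low and moved in every line. It was higher in the libraries labelled 3xSR (2.37 against 1.25 CPM, log2 difference 0.92, SE 0.232, adjusted p = 0.011 in edgeR) and in SRSF3 OE (3.68 against 2.13 CPM, 0.79, adjusted p = 0.00198). It was lower in MYC-OE (-0.91, adjusted p = 0.0099), in those labelled SRSF2 OE (-0.93, adjusted p = 0.00103) and in SRSF7 OE (-0.83, adjusted p = 0.00351). The groups with more ESR2 were those with PRLR above 1 CPM. The values of ESR2 in all lines were described after they were seen. ESRRA, an orphan receptor, passed in no line (adjusted p = 0.43 to 0.973).

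**Figure D4:**
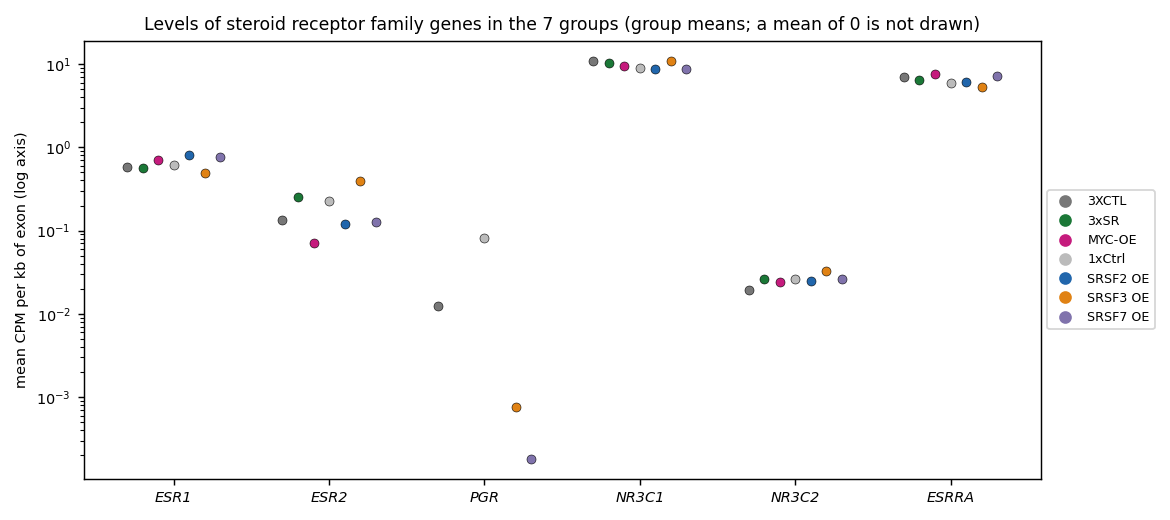
Mean level in CPM per kilobase of exon (logarithmic y axis) of steroid receptor family genes in the 7 groups; a mean of 0 is not drawn. NR3C1 and ESRRA are the highest, ESR1 follows, and PGR has points for 4 of the 7 groups.

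Chaperones and coregulators of these receptors were higher more often than lower. Among 13 tested genes, those labelled 3xSR had 6 above and 0 below their control past the threshold. The pairs of numbers were 5 and 0 in those labelled SRSF2 OE, 8 and 0 in SRSF3 OE, 4 and 1 in SRSF7 OE, and 6 and 4 in MYC-OE. Their median log2 fold change was 0.19, 0.11, 0.27, 0.19 and 0.11 in that order. The median of all genes was between -0.03 and 0. Among all 23160 genes tested, 3543 were higher and 3184 lower in those labelled 3xSR, and 4173 and 4009 in MYC-OE. Among 24362 in the second table the numbers were 2823 and 2910 in those labelled SRSF2 OE. They were 3666 and 3442 in SRSF3 OE, and 2201 and 2013 in SRSF7 OE. FKBP4, a cochaperone of steroid receptors, was higher in all 5 lines. It rose most in those labelled 3xSR, 197 against 119 CPM (0.73, SE 0.0438, edgeR adjusted p = 2.98e-07), and in MYC-OE, 188 CPM (0.66, adjusted p = 3.88e-07). HSP90AA1, the inducible form of the chaperone HSP90, rose in SRSF3 OE by 0.48 (adjusted p = 0.000824), and STIP1, which links HSP70 to HSP90, by 0.36 (adjusted p = 0.000975). The acetyltransferase gene EP300 fell in MYC-OE (-0.33, adjusted p = 0.000609) and in SRSF7 OE (-0.23, adjusted p = 0.022).

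Genes known to respond to glucocorticoids did not move together. Of 14 tested, 6 rose and 2 fell in those labelled 3xSR and 5 and 4 in MYC-OE. The numbers were 2 and 4 in those labelled SRSF2 OE, 3 and 3 in SRSF3 OE and 2 and 3 in SRSF7 OE. In the order of these lines, 29%, 35.3%, 23.5%, 29.2% and 17.3% of all genes passed in either direction. DUSP1, a phosphatase of MAP kinases, rose in those labelled 3xSR (8.81 against 3.8 CPM, 1.21, SE 0.092, edgeR adjusted p = 1.82e-06). In SRSF3 OE it rose as well (12.7 against 5.3 CPM, 1.26, adjusted p = 6.67e-07). DUSP1 was also higher past the threshold in MYC-OE (6 CPM) and in those labelled SRSF2 OE (6.37 CPM), and stood at 4.05 CPM in SRSF7 OE. TSC22D3, which encodes GILZ, fell in those labelled 3xSR (-0.47, adjusted p = 0.000505) and in SRSF3 OE (-0.96, adjusted p = 7.89e-06). It rose in SRSF7 OE (0.35, adjusted p = 0.0192). FKBP5, a cochaperone and a common readout of the glucocorticoid receptor, fell in those labelled 3xSR (-0.36, adjusted p = 0.000516). FKBP5 fell in MYC-OE as well (-0.35, edgeR adjusted p = 0.000422). In the single lines FKBP5 did not pass (adjusted p = 0.0559 to 0.379). Its log2 fold change was -0.23 for those labelled SRSF2 OE, -0.18 for SRSF3 OE and 0.11 for SRSF7 OE. These genes also answer to other signals.

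Of 12 listed oestrogen and progesterone target genes 9 could be tested. In the libraries labelled 3xSR and in MYC-OE 3 were higher and 3 lower each. In those labelled SRSF2 OE 2 were higher and 1 lower, in SRSF3 OE 2 and 4, and in SRSF7 OE 2 and 0. Among all genes 29%, 35.3%, 23.5%, 29.2% and 17.3% passed in either direction, in the order of these lines. TFF1, a classical oestrogen target, had a mean of at most 0.0241 CPM in any group. IGFBP4, also on this list, was higher past the threshold in all 5 lines. Its log2 fold change ran from 0.19 in SRSF3 OE (edgeR adjusted p = 0.0146) to 0.54 in MYC-OE (adjusted p = 6.4e-06). PDZK1 fell in those labelled 3xSR (0.547 against 2.4 CPM, -2.13, SE 0.168, edgeR adjusted p = 2.46e-06) and past the threshold in MYC-OE (0.561 CPM). WNT4, a progesterone target in mammary cells, fell in those labelled 3xSR (0.637 against 1.52 CPM, -1.25, adjusted p = 0.000533). WNT4 rose in SRSF7 OE (1.54 against 0.655 CPM, 1.23, adjusted p = 0.00134). STC2, a secreted glycoprotein, rose in MYC-OE (247 against 111 CPM, 1.16, adjusted p = 3.65e-08). It also rose past the threshold in those labelled 3xSR (150 CPM) and in SRSF3 OE (245 against 167 CPM). CA12, a carbonic anhydrase, fell in SRSF3 OE (-0.89, adjusted p = 5.4e-06) and in those labelled 3xSR (-0.49, edgeR adjusted p = 0.000958).

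Around the prolactin receptor, the ligand gene PRL and the milk protein gene CSN2 had 0 counts in every library. JAK2, the kinase bound to the receptor, passed in no line (adjusted p = 0.159 to 0.976). Of the 14 listed genes of this pathway 9 were tested in the first table and 10 in the second. The genes that rose and fell were 3 and 0 in those labelled 3xSR and 2 and 0 in MYC-OE. They were 3 and 1 in those labelled SRSF2 OE, 4 and 3 in SRSF3 OE, and 2 and 1 in SRSF7 OE. Shares of all genes passing in either direction were 29%, 35.3%, 23.5%, 29.2% and 17.3%, in the order of these lines. SOCS2, a feedback inhibitor induced by STAT5, rose in those labelled 3xSR (1.45 against 0.658 CPM, 1.14, SE 0.143, edgeR adjusted p = 0.000105), MYC-OE (1.59 CPM, 1.27, adjusted p = 2.96e-05), those labelled SRSF2 OE (1.35 against 0.836 CPM, 0.69, adjusted p = 0.00281) and SRSF3 OE (2.09 CPM, 1.32, adjusted p = 1.7e-05). In SRSF7 OE it was at 0.826 CPM (-0.02, adjusted p = 0.954). ELF5, an alveolar transcription factor downstream of prolactin, fell in SRSF7 OE (-0.95, adjusted p = 0.00618), and in SRSF3 OE by 2.69 on the log2 scale (0.227 against 1.46 CPM, adjusted p = 2.04e-06). CISH, also a STAT5 target, fell in SRSF3 OE (-0.63, adjusted p = 0.0204).

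Relatives and cofactors of GATA3 and FOXA1 passed the threshold at shares no lower than those of all genes in any line. With only 10 genes tested these counts are descriptions, and the gaps between the shares are not read as a result. Shares of all genes were 29%, 35.3%, 23.5%, 29.2% and 17.3% in either direction, in the order of the lines that follow. The numbers were 2 up and 1 down of 10 tested in those labelled 3xSR, 4 and 2 in MYC-OE, 2 and 1 in those labelled SRSF2 OE, 3 and 1 in SRSF3 OE and 3 and 2 in SRSF7 OE. GATA2 rose in those labelled SRSF2 OE (29.3 against 14.8 CPM, 0.98, SE 0.129, edgeR adjusted p = 0.000193). It also rose past the threshold in SRSF3 OE (22.5 CPM) and in MYC-OE (24 against 16.7 CPM). TRPS1, an atypical GATA factor, fell in MYC-OE (6.08 against 12.5 CPM, -1.04, adjusted p = 2.71e-07), in those labelled SRSF2 OE (-0.80, adjusted p = 2.11e-05) and in SRSF7 OE (-0.53, adjusted p = 0.000986). TLE3, a corepressor, fell in those labelled 3xSR (-0.29, adjusted p = 0.0096) and rose in SRSF7 OE (0.53, adjusted p = 0.0019). TLE3 also rose past the threshold in those labelled SRSF2 OE (22.5 against 15.7 CPM).

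Luminal markers and regulators were split, with 4 up and 4 down of 13 tested in those labelled 3xSR and 7 and 2 in MYC-OE. The numbers were 2 and 5 in those labelled SRSF2 OE, 2 and 4 in SRSF3 OE and 3 and 2 in SRSF7 OE. All genes passed at 29%, 35.3%, 23.5%, 29.2% and 17.3% in either direction, in the order of these lines. MUC1, a mucin of the luminal surface, was lower in all 5 lines, from -0.40 in SRSF7 OE (SE 0.109, edgeR adjusted p = 0.022) to -1.64 in SRSF3 OE (SE 0.112, adjusted p = 5.6e-07). ELF3, an epithelial ETS factor, followed the signs of FOXA1 in the second table. It fell in SRSF3 OE (17.9 against 49 CPM, -1.45, adjusted p = 1.1e-07) and in those labelled SRSF2 OE (-0.38, adjusted p = 0.00426) and rose in SRSF7 OE (83.8 CPM, 0.77, adjusted p = 7.81e-05). The luminal keratin KRT8 rose in SRSF7 OE (0.75, adjusted p = 0.00598) and fell in those labelled 3xSR (-0.42, adjusted p = 0.00143), as did KRT18 there (-0.25, adjusted p = 0.00264). The summed level of 5 epithelial markers ran from 2190 to 2280 CPM in those labelled 3xSR and from 3440 to 3470 in MYC-OE, against 2490 to 2820 in 3XCTL. It ran from 2440 to 2550 CPM in those labelled SRSF2 OE, from 1820 to 2010 CPM in SRSF3 OE and from 2890 to 3170 in SRSF7 OE against 2130 to 2630 in 1xCtrl. KRT8, KRT18 and KRT19 stand on both lists. The part of this in the FOXA1 and GATA3 values was not tested.

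**Figure D5:**
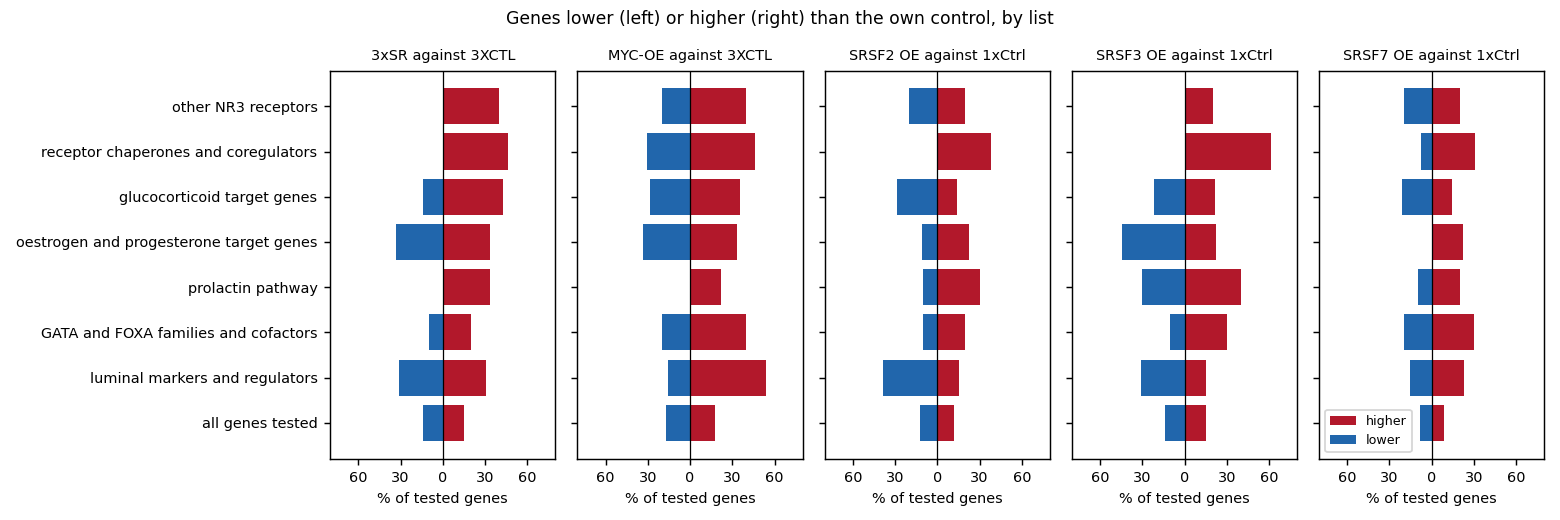
Share of tested genes of each list that were higher (right) or lower (left) than the own control at an edgeR adjusted p under 0.05, in percent, for the 5 comparisons; the bottom bar is all genes tested. Chaperones and coregulators have 0 lower genes in 3 of the 5 panels.

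The genes whose levels ran most like each member over the 21 libraries were ranked by Pearson correlation of log2 CPM among 11255 genes, as a description in which points share groups, libraries and depth. FOXA1 was nearest to METTL21A (r = 0.963), TRIM69 (0.957) and HIBADH (0.953). GATA3 was nearest to PXDC1 (0.951), ALDH3A1 (0.951) and MDH2 (0.943). NR3C1 was nearest to KIF3B (0.933), FBXO21 (0.933) and BAZ1B (0.927), and ESR1 to NPNT (0.929), TNIK (0.903) and UBE2T (0.888). By rank correlation 2 of the 3 genes stayed for FOXA1, 1 for GATA3, 0 for ESR1 and 0 for NR3C1.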

How the data were processed

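RNA-seq was made from polyA-selected stranded libraries with paired reads, per the labels' protocols. The submitters' processing notes name Trimmomatic 0.39, STAR, StringTie 2.1.3b and GRCh38.p13 without saying what each did. The authors deposited whole-number counts per gene in 2 tables, and the counting step, its strand setting and annotation are not given in the sources used here. Library totals exceed the labelled read numbers in part, so a count may be scaled from coverage and not be 1 read. Gene symbols matched 42005 of 60668 identifiers, and GENCODE 29 (GRCh38) gave positions and exon lengths.

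Libraries were grouped by their titles. Rows passing filterByExpr (its defaults, a count of 10 and a total of 15) were scaled by TMM and tested with edgeR 4.0.16 in R 4.3.3 (robust quasi-likelihood F test, either direction, Benjamini-Hochberg adjustment over all genes, threshold 0.05) in 1 fit per table over all its groups, without a replicate block. Differences between effects came from a fit of all 21 libraries. The procedure was tested on simulated data. Bounds against groups at 0 use 3 counts in each library. The 6 genes and the lists around them were chosen with earlier results of these data known. From each list the text names, per comparison, genes from the 2 highest and 2 lowest by log2 fold change. These had to pass the threshold with a mean of at least 1 CPM, and only some of them are given. ESRRA, JAK2, TFF1, PRL, CSN2, ESR2 in MYC-OE, ELF5 in SRSF3 OE and CA12 in 3xSR were added after their values were seen. So was FKBP5 outside 3xSR. Alternatives covered scaling (RLE, upper quartile, total counts), filters, DESeq2 1.42.0, limma-voom (limma 3.58.1), the groups fitted, a GC trend in 50 bins, a replicate block and leaving out each library. Promoter windows are RefSeq's on GRCh38.p14. Isoforms were not analysed here, and 1 listed gene is not reported here.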

Additional observations from a re-analysis of the deposited data

Results flagged for a closer look

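The change relative to the own control differed between the libraries labelled 3xSR and a single line, by the test of the difference itself, for 9 values. Against those labelled SRSF2 OE the edgeR difference in log2 fold change was -0.39 for ESR1 (adjusted p = 0.00372) and -0.49 for GATA3 (adjusted p = 0.00221). Against SRSF3 OE it was 0.51 for FOXA1 (adjusted p = 0.000423), 0.32 for ESR1 (adjusted p = 0.0178), -0.34 for NR3C1 (adjusted p = 0.0268) and -0.4 for GATA3 (adjusted p = 0.0129). Against SRSF7 OE it was -0.53 for FOXA1 (adjusted p = 0.000174), -0.34 for ESR1 (adjusted p = 0.00909) and -0.75 for GATA3 (adjusted p = 3.24e-05). With only the groups compared in the fit, 3 of the differences from SRSF3 OE missed the threshold (ESR1 0.0578, NR3C1 0.0995 and GATA3 0.061 as adjusted p). For PRLR and PGR, whole groups at 0 gave no usable difference.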

How the results depend on the processing

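For ESR1, GATA3, FOXA1 and NR3C1, 200 values against a control were recomputed under changed scaling, filter, tool, groups, block or trend. Of these, 192 kept direction and side of the threshold, 6 lost the call, 1 gained it and 1 changed sign. Of 120 with 1 library left out, 107 kept both, 10 lost the call and 3 changed sign. The cause was not tested where none is given.

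With at least 10 counts required in every library, PGR and PRLR leave the tests by construction, and 1, 2, 2, 3 and 3 of the remaining genes passed in the comparisons of 3xSR, MYC-OE, SRSF2 OE, SRSF3 OE and SRSF7 OE. For SRSF7 OE against 1xCtrl, fitting these groups alone gave 2251 genes in all. In that fit ESR1 (edgeR adjusted p = 0.0743) and GATA3 (adjusted p = 0.0964) lost their calls and FOXA1 kept its call. GC trend removal gave 7005 genes. Leaving out a library gave from 2685 genes (without SRSF7 OE replicate 3) to 7321 (without 1xCtrl replicate 2). Over the 6 fits with a library left out FOXA1 kept its call in all, ESR1 lost it in 2 and GATA3 in 5. For the 3xSR effect minus the SRSF3 OE effect, 2940 genes passed with only the groups compared and 7070 with the GC trend removed. Among called genes in SRSF3 OE the higher share went from 51.6% to 38.6% by the upper quartile and 32.1% by total counts, where the median of all genes went from -0.03 to -0.14. In those labelled SRSF2 OE it went from 49.2% to 36.7% with total counts. Between lines it went from 52.8% to 39% by the upper quartile for SRSF3 OE against SRSF2 OE, from 52.7% to 63.4% for SRSF7 OE against SRSF2 OE and from 49.3% to 64.7% for SRSF7 OE against SRSF3 OE by total counts. For the 3xSR effect minus the SRSF3 OE effect it went from 60.6% to 71.3% by the upper quartile, 76.3% by total counts and 49.1% with the GC trend removed.

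Signs changed in 23 values of the 6 genes, all between -0.04 and 0.1 with adjusted p of at least 0.379. With upper-quartile scaling NR3C1 gave -0.03 for SRSF7 OE against SRSF2 OE and 0.02 for the 3xSR effect minus the SRSF7 OE effect. With total counts ESR1 gave 0 for SRSF7 OE against SRSF2 OE and NR3C1 0.03 for the 3xSR effect minus the SRSF2 OE effect. With the GC trend removed MYC-OE against 3xSR gave 0 for FOXA1 and 0.03 for NR3C1, SRSF7 OE against SRSF2 OE gave 0.02 for ESR1 and -0.02 for NR3C1, and GATA3 gave 0.08 for SRSF3 OE against 1xCtrl and 0.03 for SRSF3 OE against SRSF2 OE. With 1 library left out GATA3 ranged from -0.04 to 0.15 in SRSF2 OE and from -0.13 to 0.06 in SRSF3 OE against 1xCtrl, SRSF7 OE against SRSF2 OE ranged from -0.08 to 0.01 for ESR1, from 0 to 3.01 for PGR and from -1.5 to 0.1 for PRLR, and PGR in SRSF7 OE against SRSF3 OE ranged from -4.39 to 0.07. NR3C1 ranged from -0.08 to 0.07 for the 3xSR effect minus the SRSF2 OE effect and from -0.09 to 0.06 minus the SRSF7 OE effect. By rank correlation 0, 1 and 0 of the 3 nearest genes stayed for ESR1, GATA3 and NR3C1.

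Libraries with the same number did not vary in step (correlation of their deviations, averaged over numbers, from -0.107 to 0.0118 over the 9 comparisons), so the numbers were not taken as pairs. With the replicate block 1, 2, 2, 3 and 3 of the 4 genes passed against the controls, as many as without it, and GATA3 in SRSF7 OE against SRSF2 OE lost its call (0.26, adjusted p = 0.0588). That call was also lost with upper-quartile scaling (adjusted p = 0.0534) and in 5 of 6 fits with a library left out (adjusted p up to 0.171). Counts of PGR and PRLR limit what can be said of lines near the floor, and low counts set no limit for the other 4 genes, which had at least 1155 counts in every library.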
